A study of Mus musculus with 12 samples.

Results

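The circadian clock genes described here are 10 genes of the mouse core clock loop and its closest partners: Arntl (also called Bmal1), Clock, Per1, Per2, Per3, Cry1, Cry2, Bhlhe40, Bhlhe41 and Dbp. They were taken by symbol from the platform's annotation, and each had 1 probe set, so that 10 of 19945 tested genes are described. RNA was measured on 12 single-colour Affymetrix arrays of primary C57BL/6 bone marrow-derived macrophages on day 7 of differentiation in L929-conditioned medium, a source of the growth factor CSF1. There were 3 arrays in each of 4 groups: Hdac3 -/- cells with lipopolysaccharide (LPS, 100 ng/ml for 4 h), Hdac3 -/- cells left untreated, Hdac3 +/- cells with the same LPS dose, and Hdac3 +/- cells left untreated. The Hdac3 +/- cells are labelled wild type but carry a single intact Hdac3 allele. The sources used here do not give how or in which exons the allele was deleted, the time of day of harvest, any synchronisation of the cultures, or whether replicates came from separate animals. The p-values therefore measure only the spread between these arrays, and how much of it is technical is not known.

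In the mammalian clock the transcription factors CLOCK and ARNTL bind E-boxes and switch on the Per and Cry genes, whose proteins return to block CLOCK and ARNTL. Bhlhe40 and Bhlhe41 (DEC1 and DEC2) encode repressors that also bind E-boxes, and Dbp encodes an output activator that binds D-boxes. A second loop runs through the nuclear receptors REV-ERBα and REV-ERBβ (Nr1d1, Nr1d2), which repress Arntl at ROR response elements. They do so by recruiting the corepressor NCoR with HDAC3, the enzyme whose gene is deleted in the Hdac3 -/- cells. RORα (Rora) activates the same elements. In macrophages this clock is known to gate the strength of the response to LPS by time of day.

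Signals are RMA log2 values per probe set, and log2 differences are given ± 1 SE of a limma model fitted to all 19945 genes and 12 arrays. A gene was called changed at a Benjamini-Hochberg adjusted p under 0.05 over all of them. Array medians on the log2 scale ran from 5.19 to 5.37, and precision is limited by having 3 arrays in a group. Upper quartiles were less even, at 7.32, 7.19 and 7.15 on LPS-treated Hdac3 +/- arrays, against 7.45, 7.37 and 7.5 on untreated ones. On Hdac3 -/- arrays they ran from 7.29 to 7.46. Hdac3 itself was lower in every Hdac3 -/- array, at 6.91 to 7.53, than in any Hdac3 +/- array, at 8.66 to 9.42, and so followed the genotype labels. Where its probes lie relative to the deleted exons is not known here, so the remaining signal does not measure how complete the deletion was. All 8 macrophage markers were measured, and their mean log2 signal per array was 11.1 to 11.7, against 5.98 or less for every list of markers of another cell type. Of these 8, 2 were called for LPS in Hdac3 -/- cells (8.87% of all genes) and 5 in Hdac3 +/- cells (25.1%). Between the genotypes 1 was called untreated (2.66%) and 1 after LPS (15.7%). Mertk averaged 6.58 in LPS-treated and 9.20 in untreated Hdac3 -/- arrays, and 6.89 and 8.90 in Hdac3 +/- arrays. In the same order Fcgr1 averaged 9.41, 9.25, 11.82 and 10.69. Of 5 dendritic cell markers 2 were called between the genotypes after LPS. Of the 8 neutrophil markers, S100a8, which macrophages can also express, averaged 9.23 in LPS-treated and 7.07 in untreated Hdac3 -/- arrays, and 7.27 in LPS-treated and 5.03 in untreated Hdac3 +/- arrays, called in no comparison, and Ngp, lower in untreated Hdac3 -/- (4.32) than in untreated Hdac3 +/- arrays (5.49), was the list's only call. The fibroblast list (5 genes) averaged 5.56 to 5.75 in LPS-treated and 5.37 to 5.57 in untreated Hdac3 -/- arrays, and 5.63 to 5.98 in LPS-treated and 5.29 to 5.61 in untreated Hdac3 +/- arrays, and the part of either list in the results was not tested. The Y-linked gene Uty had signals of 7.22 on the LPS-treated and 7.62 on the untreated Hdac3 +/- array of replicate 1. On all other arrays it had 2.54 to 3.24. Xist, a transcript of female cells, had 3.2 and 3.93 on these 2 arrays, against 9.67 to 11 on all others. These 2 thus had the signals of male cells, and the others, all Hdac3 -/- arrays among them, those of female cells. Sex therefore differed within Hdac3 +/- cells and between the genotypes, and the Hdac3 +/- cells did not all come from 1 animal. The tests of the members and of the other pathway genes were also run without these 2 arrays. In bulk RNA fewer cells with a transcript and less of it per cell cannot be told apart.

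The member that differed most was Bhlhe41, which lies on chromosome 6 from 145858243 to 145865420 (GRCm38.p6, as all gene positions here). Its log2 signal was 10.10, 9.76 and 10.27 in LPS-treated Hdac3 -/- arrays and 10.43, 10.08 and 9.98 in untreated Hdac3 -/- arrays. Among Hdac3 +/- arrays it stood at 6.12, 7.42 and 6.42 with LPS and at 8.18, 9.19 and 8.77 untreated. All 6 Hdac3 -/- arrays were thus higher than all 6 Hdac3 +/- arrays, the LPS-treated Hdac3 +/- arrays were lower than the untreated ones, and the Hdac3 -/- groups overlapped with each other. By group mean, LPS-treated Hdac3 -/- cells (10.04 ± 0.257, SD, n = 3) and untreated Hdac3 -/- cells (10.16 ± 0.237) were highest and did not differ beyond their spread, while LPS-treated Hdac3 +/- cells (6.65 ± 0.682) were lowest, below untreated Hdac3 +/- cells (8.71 ± 0.509).

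After LPS, Bhlhe41 was 10.5-fold higher in Hdac3 -/- than in +/- cells (log2 3.39 ± 0.307, adjusted p = 7.86e-06), rank 4 from the top of the 19945 genes. Without LPS it was 2.73-fold higher (log2 1.45 ± 0.307, adjusted p = 0.0205). Without both Hdac3 +/- arrays of replicate 1, the Bhlhe41 difference between untreated genotypes was 1.18 (adjusted p = 0.0534). That call was also lost without the untreated Hdac3 +/- array of replicate 1 alone (1.18, adjusted p = 0.0864), without that of replicate 3 (1.48, adjusted p = 0.0598) and without the untreated Hdac3 -/- array of replicate 1 (1.32, adjusted p = 0.118). LPS lowered Bhlhe41 4.17-fold in Hdac3 +/- cells (log2 -2.06 ± 0.307, adjusted p = 0.000262). In Hdac3 -/- cells the LPS difference was -0.12 ± 0.307 (adjusted p = 0.9, 95% interval -0.78 to 0.54). The difference between these LPS responses of Bhlhe41, tested as an interaction, was 1.94 ± 0.434 in limma (unadjusted p = 0.000581, adjusted p = 0.0517, 95% interval 1.00 to 2.87) and did not pass. Of 22 alternatives this interaction passed in 6 and did not pass in 16 (adjusted p from 0.00237 to 0.14). With replicate number as a block within genotype the same value had adjusted p = 0.00237. It also passed without both Hdac3 +/- arrays of replicate 1 (1.94, adjusted p = 0.0384). Leaving out the LPS-treated Hdac3 +/- array of replicate 2 gave 2.32 (adjusted p = 0.00701). Leaving out the untreated Hdac3 +/- array of replicate 1 gave 2.21 (adjusted p = 0.0276).

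Because Bhlhe41 is both a clock repressor and, as an E-box gene, a target of the clock, the 250 bases before its listed start are shown with a match to the E-box CACGTG in capitals (RefSeq, GRCm38.p6, minus strand, chr6:145865421-145865670).
Bhlhe41: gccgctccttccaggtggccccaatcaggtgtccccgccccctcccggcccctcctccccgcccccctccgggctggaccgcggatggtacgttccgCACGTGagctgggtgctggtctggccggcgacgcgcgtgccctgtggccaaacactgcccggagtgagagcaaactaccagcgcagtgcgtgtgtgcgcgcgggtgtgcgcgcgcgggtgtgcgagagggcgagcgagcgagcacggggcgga
The match begins 153 bases before the start. A listed start is a transcript start in the RefSeq table, which for some genes lies inside the span of the gene. Of the 8 members with a promoter window in the RefSeq table (250 bases before to 50 after a listed start), 3 hold CACGTG, which reads the same on both strands: Bhlhe41, Cry1 and Per1. By gene, 8.09% of all 27025 genes in the table hold the letters, and by window 7.15% of 32851. A match is a description of the sequence and not a measured binding site.

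**Figure D1:**
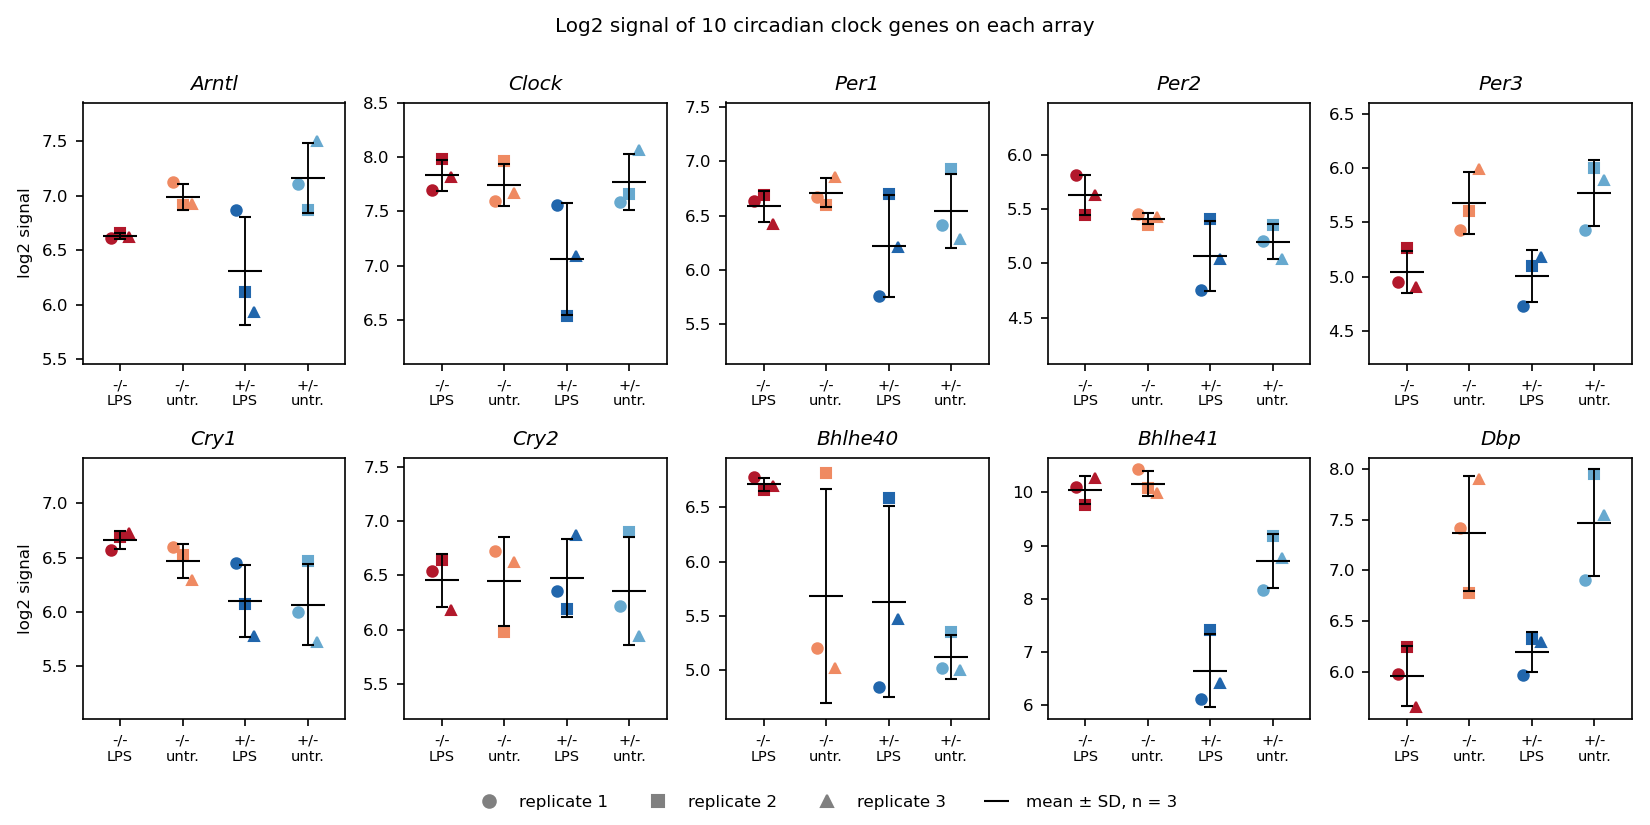
Log2 signal (y axis) of the 10 clock genes on each array, by group (x axis). Marker shape gives the replicate number and black bars the mean ± SD of 3 arrays. The Bhlhe41 panel shows all 6 Hdac3 -/- arrays between 9.76 and 10.43, above all Hdac3 +/- arrays, and the Dbp panel shows both LPS-treated groups below both untreated groups.

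Its paralogue Bhlhe40 (chromosome 6, 108660629 to 108666925), a repressor that is also known to restrain Il10 in mouse macrophages, had a different pattern and the widest within-group spread of the members. Its log2 signal was 6.77, 6.66 and 6.70 in LPS-treated Hdac3 -/- arrays and 5.21, 6.81 and 5.02 in untreated Hdac3 -/- arrays. Among Hdac3 +/- arrays it stood at 4.84, 6.58 and 5.47 with LPS and at 5.02, 5.35 and 5.00 untreated. The LPS-treated Hdac3 -/- arrays were close together and above every Hdac3 +/- array, but 1 untreated Hdac3 -/- array, replicate 2, was as high as they were. The pooled within-group SD of Bhlhe40 was 0.668, larger than that of 98.8% of genes. No comparison of Bhlhe40 passed: it stood at 1.08 ± 0.432 between the genotypes after LPS (adjusted p = 0.114) and at 1.03 ± 0.432 for LPS in Hdac3 -/- cells (adjusted p = 0.19). Without the untreated Hdac3 -/- array of replicate 2, these became adjusted p = 0.0328 (Bhlhe40 at 1.08) and adjusted p = 0.0121 (1.59). Without the LPS-treated Hdac3 +/- array of replicate 2 the difference between the genotypes after LPS was 1.55 (adjusted p = 0.0244). Bhlhe40 passed between the genotypes after LPS in only 4 of 22 alternatives (adjusted p up to 0.322). For LPS in Hdac3 -/- cells it passed in 2 of 23 (adjusted p up to 0.511).

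Dbp, the D-box activator whose transcript is among the strongest cycling outputs of the clock, was lowered by LPS in both genotypes (chromosome 7, 45705100 to 45710203). Its log2 signal was 5.98, 6.25 and 5.66 in LPS-treated Hdac3 -/- arrays, against 7.42, 6.78 and 7.90 in untreated Hdac3 -/- arrays. In Hdac3 +/- cells it was 5.97, 6.33 and 6.30 with LPS, against 6.91, 7.95 and 7.55 untreated. Every LPS-treated array was thus lower than every untreated array in either genotype. Dbp fell 2.64-fold in Hdac3 -/- cells (log2 -1.40 ± 0.286, adjusted p = 0.00657) and 2.41-fold in Hdac3 +/- cells (log2 -1.27 ± 0.286, adjusted p = 0.0051). Both calls held in each of 23 alternatives, among them leaving out each array in turn. Between the genotypes the difference of Dbp was -0.24 ± 0.286 after LPS (95% interval -0.85 to 0.38) and -0.10 ± 0.286 untreated (95% interval -0.72 to 0.51), and the interaction was -0.13 ± 0.404 (adjusted p = 0.93).

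Per3, the period gene thought to be least essential to the oscillator, was lower on every LPS-treated array than on the untreated arrays of its genotype (chromosome 4, 150997018 to 151044707). Its log2 signal was 4.95, 5.27 and 4.91 in LPS-treated Hdac3 -/- arrays, against 5.43, 5.60 and 5.99 in untreated Hdac3 -/- arrays. In Hdac3 +/- arrays it was 4.73, 5.10 and 5.18 with LPS, against 5.43, 6.00 and 5.88 untreated. The lowest untreated array was 5.43 in each genotype, above the highest treated arrays at 5.27 and 5.18. Per3 fell 1.70-fold in Hdac3 +/- cells (log2 -0.77 ± 0.193, adjusted p = 0.0101), and in Hdac3 -/- cells the difference was -0.63 ± 0.193 (adjusted p = 0.0592). The Hdac3 -/- difference passed in 10 of 23 alternatives, with the replicate block within genotype among them (adjusted p = 0.0263), as well as without the LPS-treated (adjusted p = 0.0481) or the untreated Hdac3 +/- array of replicate 1 (adjusted p = 0.0411). The interaction of Per3 was 0.13 ± 0.273 (adjusted p = 0.892).

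The promoters of Dbp and Per3, the members called or nearest to the threshold for LPS in both genotypes, are shown as the 250 bases before a listed start, with matches to the D-box TTATGTAA or to CACGTG in capitals (RefSeq, GRCm38.p6; Dbp, plus strand, chr7:45704997-45705246; Per3, minus strand, chr4:151044666-151044915).
Dbp: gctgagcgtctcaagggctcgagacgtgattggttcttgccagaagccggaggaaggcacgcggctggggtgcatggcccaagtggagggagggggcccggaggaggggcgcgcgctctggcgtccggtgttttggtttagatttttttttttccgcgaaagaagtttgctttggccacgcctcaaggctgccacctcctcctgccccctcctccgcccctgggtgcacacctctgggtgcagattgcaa
Per3: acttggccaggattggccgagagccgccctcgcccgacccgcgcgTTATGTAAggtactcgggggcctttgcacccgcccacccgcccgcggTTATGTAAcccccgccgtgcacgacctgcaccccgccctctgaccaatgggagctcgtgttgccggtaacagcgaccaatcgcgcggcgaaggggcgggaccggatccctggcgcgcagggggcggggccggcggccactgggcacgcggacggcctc
Per3 holds 2 matches to TTATGTAA, searched on both strands, which begin 205 and 158 bases before the start. It was the only member of the 8 with this D-box, whose letters are held by 1.11% of all genes and 0.938% of all windows. The Dbp window holds neither motif, which says only that these letters are not in this stretch.

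The activators Arntl and Clock were lowered by LPS in Hdac3 +/- cells. Arntl lies on chromosome 7 (113178471 to 113314126) and Clock on chromosome 5 (76209868 to 76305603). Arntl had log2 signals of 6.61, 6.66 and 6.62 in LPS-treated Hdac3 -/- arrays, against 7.13, 6.91 and 6.93 in untreated ones. In Hdac3 +/- arrays it had 6.87, 6.11 and 5.93 with LPS, against 7.11, 6.87 and 7.51 untreated. The treated arrays were all lower in Hdac3 -/- cells, and in Hdac3 +/- cells the highest treated array, replicate 1, met the lowest untreated one. Arntl fell 1.81-fold in Hdac3 +/- cells (log2 -0.86 ± 0.217, adjusted p = 0.0103), and in Hdac3 -/- cells the difference was -0.36 ± 0.217 (adjusted p = 0.417, 95% interval -0.82 to 0.11). The first call was lost without the LPS-treated Hdac3 +/- array of replicate 3 (-0.67, adjusted p = 0.0549) or the untreated one of replicate 3 (-0.68, adjusted p = 0.054). The difference of Arntl between these responses was 0.50 ± 0.306 (adjusted p = 0.588). Between the genotypes Arntl stood at 0.33 ± 0.217 after LPS (adjusted p = 0.352), which became 0.61 (adjusted p = 0.0316) without the LPS-treated Hdac3 +/- array of replicate 1, and at -0.17 ± 0.217 untreated (adjusted p = 0.855, 95% interval -0.64 to 0.29).

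As Arntl is the clock gene known to be repressed through REV-ERB, NCoR and HDAC3, a stretch of 30 bases after the second of its listed starts is shown with the ROR response element in capitals (RefSeq, GRCm38.p6, plus strand, chr7:113207527-113207556).
Arntl: gggaaggcagAAAGTAGGTCAgggacggag
This extended element, searched on both strands with 1 base left free, has 2 matches near the Arntl starts, of which the second is shown. No other member of the 8 holds it, and 0.0703% of all genes and 0.0609% of all windows do. The shorter AGGTCA, which overlaps it, was found in 3 of the 8 members (Arntl, Clock and Per1) and in 18.1% of all genes (16.3% of windows).

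Clock had log2 signals of 7.69, 7.98 and 7.82 in LPS-treated Hdac3 -/- arrays, against 7.60, 7.97 and 7.67 in untreated ones. In Hdac3 +/- arrays it had 7.56, 6.54 and 7.09 with LPS, against 7.59, 7.66 and 8.07 untreated. The LPS-treated Hdac3 +/- arrays were the lowest of all 4 groups, with replicate 1 just below the lowest of the others. Clock fell 1.63-fold with LPS in Hdac3 +/- cells (log2 -0.71 ± 0.223, adjusted p = 0.0329), and in Hdac3 -/- cells the difference was 0.09 ± 0.223 (adjusted p = 0.898). After LPS it was 1.70-fold higher in Hdac3 -/- than in +/- cells (0.77 ± 0.223, adjusted p = 0.032). The interaction of Clock was 0.79 ± 0.315 in limma (unadjusted p = 0.025, adjusted p = 0.324), so a difference between the responses was not shown over all genes. The LPS call of Clock was lost in 6 of 23 alternatives, among them without the LPS-treated Hdac3 +/- arrays of replicate 2 (-0.44, adjusted p = 0.142) or 3 (-0.72, adjusted p = 0.0743), without the untreated one of replicate 3 (-0.56, adjusted p = 0.135) and with quantile normalization (-0.51, adjusted p = 0.111). The genotype call did not pass in 9 of the 22 alternatives run (adjusted p from 0.00498 to 0.119), among them without any of the 3 LPS-treated Hdac3 -/- arrays (0.69 to 0.84) and without the LPS-treated Hdac3 +/- arrays of replicate 2 (0.50, adjusted p = 0.119) or 3 (0.78, adjusted p = 0.0832). It was also lost with quantile normalization (0.64, adjusted p = 0.0641) and with cyclic loess normalization (0.60, adjusted p = 0.0905).

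**Figure D2:**
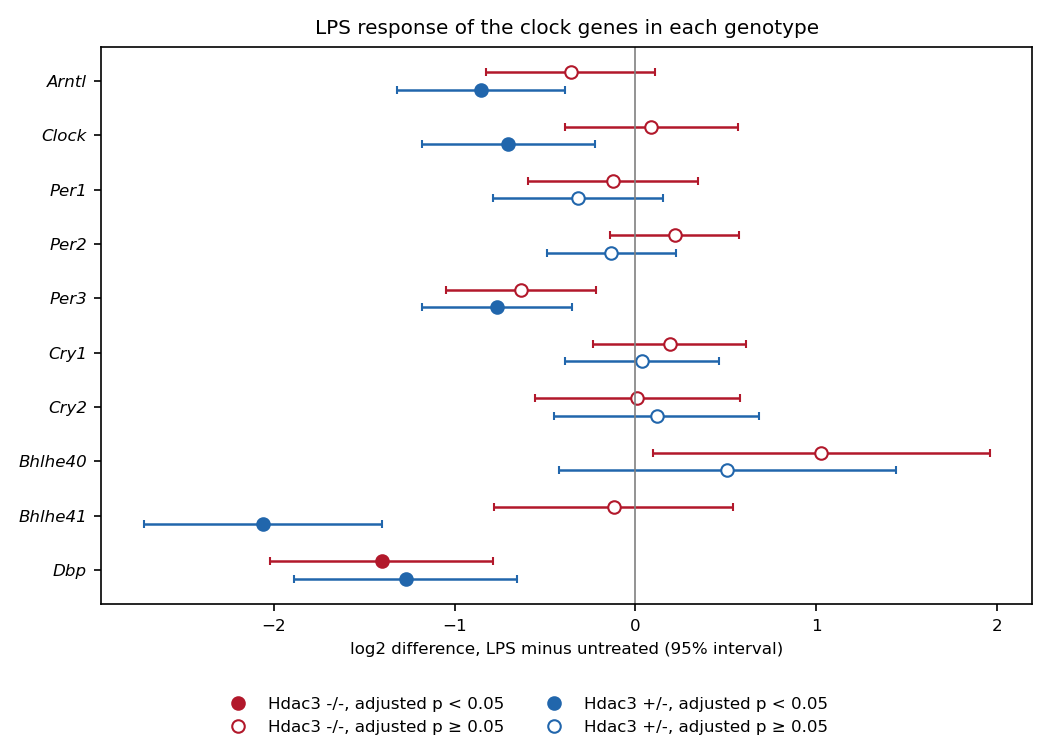
Log2 difference of LPS-treated minus untreated cells (x axis) for each clock gene (y axis) in Hdac3 -/- (red) and Hdac3 +/- (blue) macrophages, with 95% intervals of the limma model, n = 3 arrays per group. Filled points are called. Dbp lies at -1.40 and -1.27 in the genotypes, while Bhlhe41 lies at -0.12 in Hdac3 -/- and -2.06 in Hdac3 +/- cells.

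Of the remaining repressors of the loop, Per2 (chromosome 1, 91415977 to 91459351) was higher in Hdac3 -/- cells after LPS. Its log2 signal was 5.81, 5.44 and 5.63 in LPS-treated Hdac3 -/- arrays, against 4.76, 5.41 and 5.04 in LPS-treated Hdac3 +/- arrays. Untreated, Per2 stood at 5.45, 5.36 and 5.43 in Hdac3 -/- arrays, against 5.21, 5.36 and 5.04 in Hdac3 +/- arrays. The LPS-treated genotypes were separated only by the small gap between 5.44 and 5.41, and the untreated genotypes by none. Per2 was 1.47-fold higher after LPS (0.56 ± 0.166, adjusted p = 0.035), and did not pass in 8 of the 22 alternatives run (adjusted p from 0.00553 to 0.14), among them with the replicate block across groups (adjusted p = 0.053). It was lost without the LPS-treated Hdac3 -/- arrays of replicate 1 (0.47, adjusted p = 0.14) or 3 (0.56, adjusted p = 0.103), the LPS-treated Hdac3 +/- arrays of replicate 1 (0.41, adjusted p = 0.105) or 3 (0.55, adjusted p = 0.102) and the untreated Hdac3 -/- array of replicate 1 (0.56, adjusted p = 0.0514). Untreated, the Per2 difference was 0.21 ± 0.166 (adjusted p = 0.71).

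Cry1, a strong repressor of CLOCK and ARNTL, had log2 signals of 6.57, 6.69 and 6.72 in LPS-treated Hdac3 -/- arrays, against 6.45, 6.07 and 5.78 in LPS-treated Hdac3 +/- arrays. Untreated, it had 6.59, 6.52 and 6.29 in Hdac3 -/- arrays, against 6.00, 6.46 and 5.73 in Hdac3 +/- arrays. The genotypes did not overlap after LPS and overlapped untreated. The Cry1 difference of 0.56 ± 0.197 after LPS did not pass (adjusted p = 0.0724), nor did that of 0.41 ± 0.197 without LPS (adjusted p = 0.425). It passed after LPS in 4 of 22 alternatives, among them without the LPS-treated Hdac3 +/- array of replicate 1 (0.73, adjusted p = 0.0241) and without the untreated Hdac3 +/- array of replicate 2 (0.56, adjusted p = 0.039).

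Per1 and Cry2 were called in no comparison. Per1, the period gene with a known rapid response to cAMP signals, ranged from 6.43 to 6.69 in LPS-treated and 6.60 to 6.86 in untreated Hdac3 -/- arrays, and from 5.76 to 6.70 in LPS-treated and 6.28 to 6.92 in untreated Hdac3 +/- arrays. Per1 overlapped in every comparison, and its LPS differences were -0.13 ± 0.218 in Hdac3 -/- and -0.32 ± 0.218 in Hdac3 +/- cells. Cry2 ranged from 6.18 to 6.64 in LPS-treated and 5.98 to 6.73 in untreated Hdac3 -/- arrays, and from 6.19 to 6.88 in LPS-treated and 5.95 to 6.90 in untreated Hdac3 +/- arrays. The 95% intervals of its LPS differences were -0.56 to 0.58 in Hdac3 -/- and -0.45 to 0.69 in Hdac3 +/- cells. Given only the spread between these arrays, they bound how large a change of Cry2 could have gone unseen. The E-boxes of Per1 (plus strand, chr11:69098771-69098800) and Cry1 (minus strand, chr10:85185097-85185126), in capitals, are given for comparison with that of Bhlhe41 (RefSeq, GRCm38.p6).
Per1: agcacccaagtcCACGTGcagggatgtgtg
Cry1: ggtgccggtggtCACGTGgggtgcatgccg
They begin 166 bases before the first listed start of Per1 and 60 bases before that of Cry1.

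By count, 1 of the 10 members fell and 0 rose with LPS in Hdac3 -/- cells, where 8.87% of all genes were called, 3.69% higher and 5.18% lower. In Hdac3 +/- cells 5 members fell and 0 rose with LPS, where 25.1% of all genes were called, 9.59% higher and 15.5% lower. The median LPS difference of the members was -0.06 in Hdac3 -/- and -0.51 in Hdac3 +/- cells, beside 0.02 and 0.08 over all genes. Between the genotypes, 3 members were higher and 0 lower in Hdac3 -/- cells after LPS, where 15.7% of all genes were called, 9.69% higher and 5.99% lower. Untreated, 1 member was higher and 0 lower, where 2.66% were called, 1.22% higher and 1.44% lower. The median genotype difference was 0.46 after LPS and 0.13 untreated, beside -0.04 and 0.01 over all genes. With 10 members, 1 call is 10% of the list, so the counts in Hdac3 -/- cells and in untreated cells rest on a single gene each. No member passed the limma interaction test, where 1.08% of all genes did (0.306% higher and 0.777% lower), and 2 members, Bhlhe41 and Clock, had an unadjusted p under 0.05, as had 11.4% of all genes. The groups compared did not overlap for LPS in Hdac3 -/- cells for 3 members (28.3% of all genes), for LPS in Hdac3 +/- cells for 4 (36.7%), between genotypes untreated for 1 (18% of all genes) and between genotypes after LPS for 5 (31.8%). Without both Hdac3 +/- arrays of replicate 1, the members called were 2 for LPS in Hdac3 -/- cells (9.67% of all genes), 5 for LPS in Hdac3 +/- cells (24.5%), 0 between the untreated genotypes (1.96%) and 4 after LPS (17.5%), where Arntl (0.61, adjusted p = 0.0394) and Cry1 (0.73, adjusted p = 0.0303) passed and Per2 (0.41, adjusted p = 0.123) did not. The comparisons within a genotype and between genotypes share arrays and are not independent of each other.

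**Figure D3:**
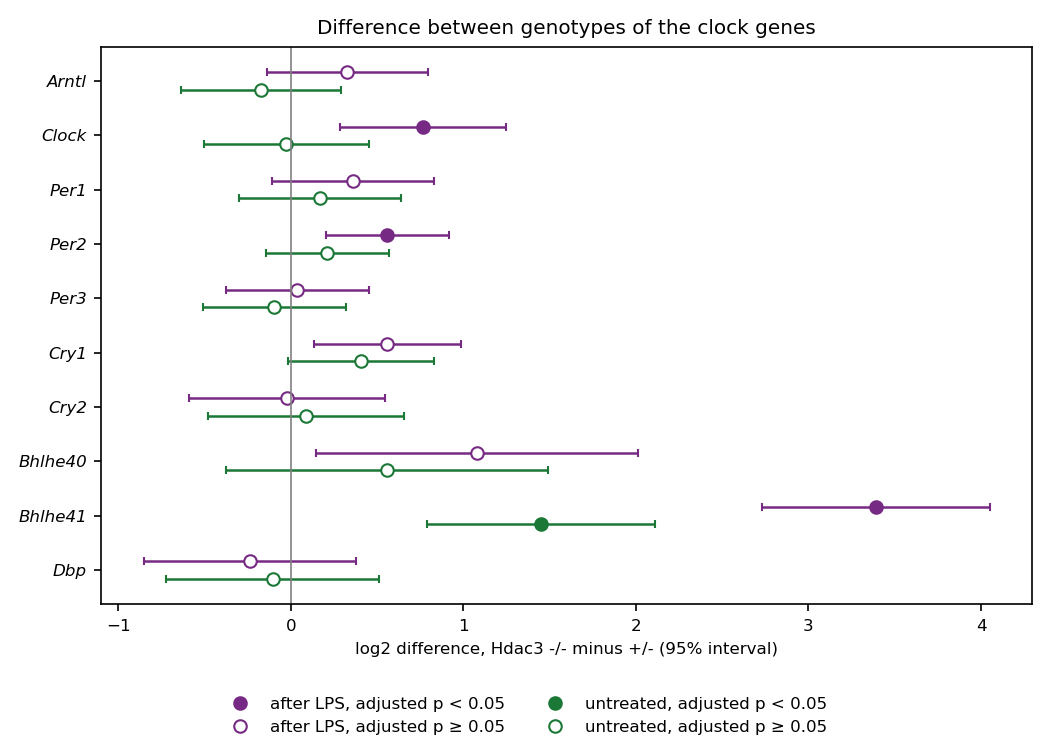
Log2 difference of Hdac3 -/- minus +/- cells (x axis) for each clock gene (y axis), after LPS (purple) and untreated (green), with 95% intervals of the limma model, n = 3 arrays per group. Filled points are called. Bhlhe41 stands at 3.39 after LPS and 1.45 untreated, while the intervals of Arntl, Per1, Per3, Cry2 and Dbp include 0 in both conditions.

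**Figure D4:**
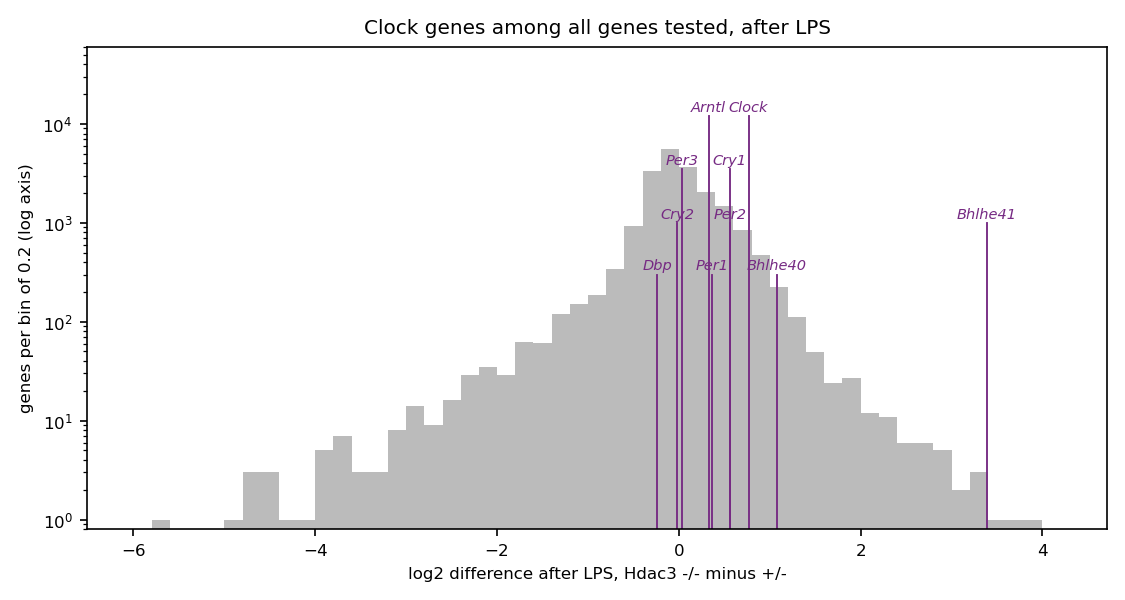
Histogram of the log2 difference after LPS (x axis, Hdac3 -/- minus +/-) over 19945 genes, in bins of 0.2 with a log y axis. Lines mark the 10 clock genes, whose height has no meaning. Bhlhe41 lies at 3.39 in the upper tail, and the other 9 lie between -0.24 and 1.08.

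The members also varied within groups. The pooled within-group SD ran from 0.204 for Per2 to 0.668 for Bhlhe40, beside a median of 0.202 over all genes. Among LPS-treated Hdac3 +/- arrays, replicate 1, which is also the one with Y-linked signal, was the lowest of its group for 6 members (Per1, Per2, Per3, Dbp, Bhlhe40 and Bhlhe41) and the highest for 3 (Cry1, Arntl and Clock). Over all genes that array was the lowest in 39.6% and the highest in 31.5%. Among untreated Hdac3 +/- arrays, replicate 2 was the highest for 8 members, against 45.8% of all genes. These splits were noticed in the values and have no test.

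Likeness was measured as the root mean square difference between gene-centred log2 profiles over the 12 arrays, which share groups and normalization. The genes nearest to Bhlhe41 were Lhfpl2 (0.485) and Cebpa (0.588, a myeloid transcription factor gene), beside an SD of 1.53 for Bhlhe41 itself. Lhfpl2 and Cebpa were higher in Hdac3 -/- cells after LPS by 2.33 each on the log2 scale and differed with LPS in Hdac3 +/- cells by -1.84 and -1.07. Nearest to Dbp were Pnpla7 (0.239) and Idh1 (0.242), an isocitrate dehydrogenase gene, with LPS differences in Hdac3 -/- cells of -1.27 and -1.38 and in Hdac3 +/- cells of -1.14 and -1.35. The nearest genes were Ube4b (0.131) and Trp53bp1 (0.135) for Arntl, Larp4 (0.145) and Eif5 (0.162) for Clock, Zcchc3 (0.101) and Mageh1 (0.122) for Per2, and Snap23 (0.162) and Nisch (0.165) for Per3.

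The other genes of the clock pathway described here are the 22 that were analysed from a list chosen for it. Nr1d1, which encodes REV-ERBα, had log2 signals of 8.61, 8.06 and 8.28 in LPS-treated Hdac3 -/- arrays, against 6.78, 6.65 and 6.75 in LPS-treated Hdac3 +/- arrays. Untreated, it had 7.61, 7.78 and 7.82 in Hdac3 -/- arrays, against 6.72, 6.81 and 6.94 in Hdac3 +/- arrays. All Hdac3 -/- arrays were higher, as for Bhlhe41. The genotype difference of Nr1d1 was 1.59 ± 0.146 after LPS (adjusted p = 8.9e-06) and 0.91 ± 0.146 untreated (adjusted p = 0.00323). With LPS it rose by 0.58 ± 0.146 in Hdac3 -/- cells (adjusted p = 0.0222), against -0.10 ± 0.146 in Hdac3 +/- cells (adjusted p = 0.644). The interaction of Nr1d1, 0.68 ± 0.207, did not pass (adjusted p = 0.162). Nr1d2, which encodes REV-ERBβ, fell with LPS in Hdac3 -/- cells (-0.999 ± 0.238, adjusted p = 0.017) and was lower in Hdac3 -/- than in +/- cells after LPS (-0.88 ± 0.238, adjusted p = 0.0228). Its LPS difference in Hdac3 +/- cells was -0.33 ± 0.238 (adjusted p = 0.321), and its interaction, -0.67 ± 0.337, did not pass (adjusted p = 0.489). Without both Hdac3 +/- arrays of replicate 1 these 2 values of Nr1d2 were -0.65 and -0.35. Arntl, the target of both receptors, was called in no comparison between the genotypes when all arrays were fitted. After LPS its genotype difference passed in 2 of 22 alternatives and did not pass in 20. It was 0.61 without the LPS-treated Hdac3 +/- array of replicate 1 (adjusted p = 0.0316) and without both of that number (adjusted p = 0.0394). Untreated, the genotype difference of Arntl passed in 0 of 22. Whether repression of Arntl by these receptors differed was not tested.

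Of these 22 genes, 2 rose (Nr1d1 and Nampt) and 1 fell (Nr1d2) with LPS in Hdac3 -/- cells, where 3.69% of all genes were called higher and 5.18% lower. In Hdac3 +/- cells 5 rose and 4 fell, where 9.59% of all genes were called higher and 15.5% lower. Nampt, the NAD salvage enzyme gene, rose by 0.85 ± 0.233 in Hdac3 -/- (adjusted p = 0.037) and by 1.30 ± 0.233 in Hdac3 +/- cells (adjusted p = 0.00108). In Hdac3 +/- cells the D-box repressor Nfil3 rose by 1.88 ± 0.267 (adjusted p = 0.000177) and the clock repressor Ciart by 1.01 ± 0.236 (adjusted p = 0.00638), and the cell cycle kinase gene Wee1 fell by 1.97 (SE 0.451, adjusted p = 0.0057). After LPS, 3 of the 22 were higher in Hdac3 -/- cells, among them Nr1d1 and Rora (0.92 ± 0.245, adjusted p = 0.021), and 3 were lower, among them Nr1d2 and Timeless (-1.75 ± 0.350, adjusted p = 0.00422), a DNA replication gene, where 9.69% of all genes were called higher and 5.99% lower. Rora was itself called lower with LPS in Hdac3 +/- cells (-0.81 ± 0.245, adjusted p = 0.0274). Its genotype difference untreated was 0.40 ± 0.245 (adjusted p = 0.584), and its interaction 0.52 ± 0.347 (adjusted p = 0.622). Untreated, 1 of the 22, Nr1d1, was higher and 0 were lower, where 1.22% of all genes were called higher and 1.44% lower. None of the 22 passed the limma interaction test, which 1.08% of all genes did. Without both Hdac3 +/- arrays of replicate 1 the counts of the 22 were the same apart from 2 lower after LPS, where Nr1d2 did not pass (-0.70, adjusted p = 0.0705).

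**Figure D5:**
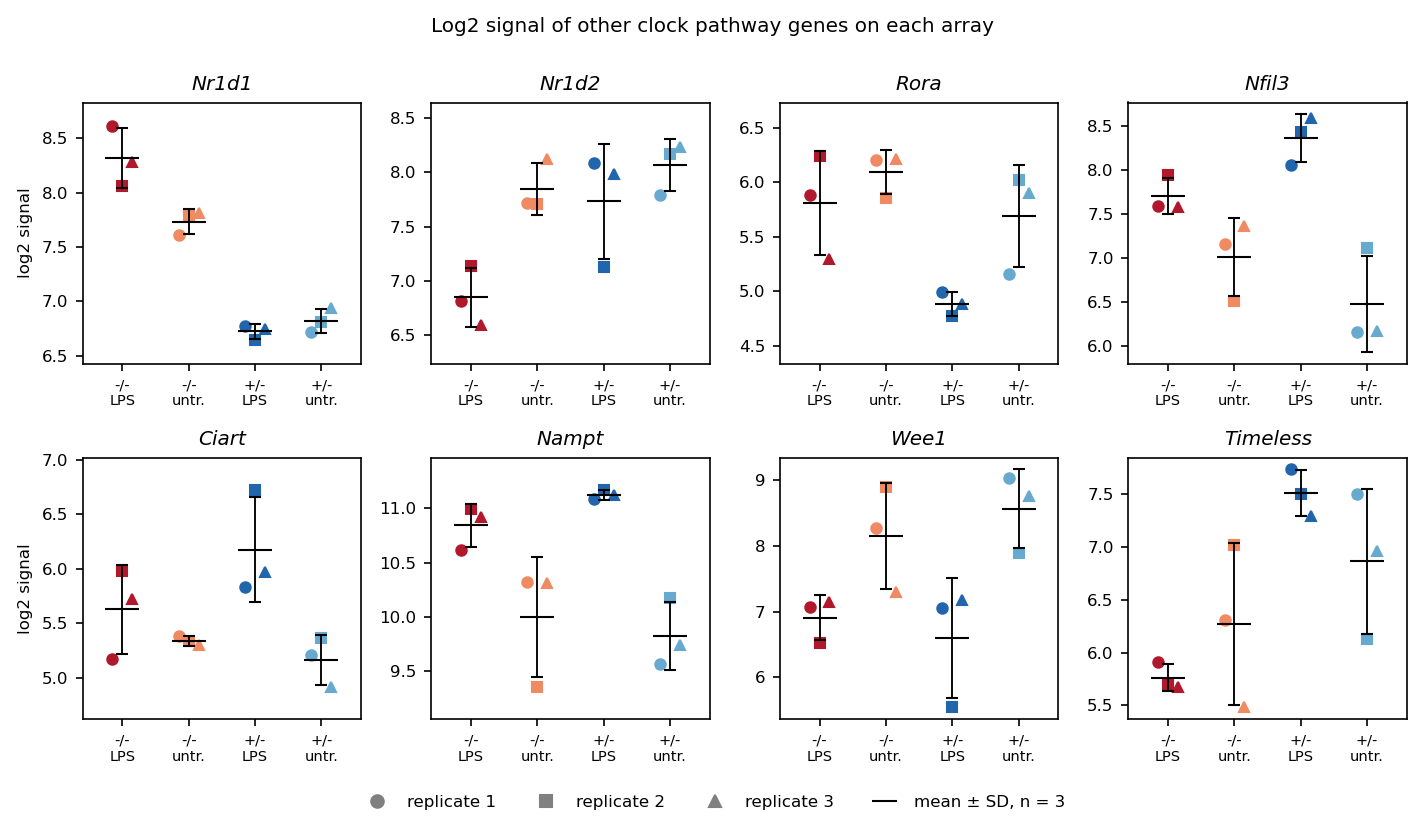
Log2 signal (y axis) of the 8 named genes of the wider clock pathway on each array, by group (x axis), with marker shape for the replicate number and black bars for the mean ± SD of 3 arrays. Nr1d1 is higher on all Hdac3 -/- arrays, at 7.61 to 8.61, than on all Hdac3 +/- arrays, at 6.65 to 6.94, and Nampt is higher on the LPS-treated arrays of each genotype.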

How the data were processed

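The deposited values are log2 signals of 28193 probe sets on 12 arrays, made by the authors with RMA in affy, the tools that the submitters' processing notes name. No source used here gives their versions, settings or build. Probe sets were named from the platform's annotation (1 symbol for 21648, several for 1313, none for 5232), with coordinates and promoter sequences from RefSeq GRCm38.p6, which had no promoter window for 2 members. The 19945 genes, each by its brightest probe set, were fitted with limma 3.58.1 in R 4.3.3 with a mean per group and eBayes without trend, and 5 contrasts were adjusted by Benjamini-Hochberg (threshold 0.05). The script was tested on simulated data. Python 3.11.15, pandas 2.3.3, numpy 2.4.6 and matplotlib 3.10.9 made tables and figures. The members and lists were chosen with earlier results of these data known. Named genes are Hdac3, all members, up to 4 called pathway genes per contrast with the largest change, and the 2 nearest genes of each called member.

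Replicate numbers were checked as a pairing by correlating deviations from group means. LPS-treated and untreated Hdac3 +/- arrays of a number correlated at 0.243, 0.327 and 0.223, so the numbers may pair them, while the Hdac3 -/- arrays gave 0.0898, 0.195 and -0.122. No source states a shared animal or batch. Alternatives were other normalizations, a variance trend, array weights, a filter on dim genes (log2 over 5 on at least 3 arrays), the mean of probe sets, all probe sets, only the groups compared, replicate blocks and each array left out. Scan dates were not analysed here.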

Additional observations from a re-analysis of the deposited data

How the results depend on the processing

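The calls of Bhlhe41 after LPS and of Bhlhe41, Dbp and Per3 for LPS in Hdac3 +/- cells, and of Dbp for LPS in Hdac3 -/- cells, held in every alternative run, and no called difference changed sign. In Hdac3 -/- cells the count of members called for LPS was 1, and 2 with quantile normalization, cyclic loess, dim genes left out, only the groups compared, either replicate block or without both Hdac3 +/- arrays of replicate 1 (chosen after seeing the data), and 3 with array weights. Between untreated genotypes it was 1, and 0 without those 2 arrays. After LPS it was 3, and 5 with array weights and 1 with only the groups compared, where 4440 and 2759 of all genes were called, against 3127. For the interaction it was 0, and 1 (Bhlhe41) with array weights, dim genes left out, the replicate block within genotype or without those 2 arrays. With single arrays left out the counts ran from 1 to 2 for LPS in Hdac3 -/- and 3 to 5 in Hdac3 +/- cells, 0 to 1 untreated, 1 to 4 after LPS and 0 to 1 for the interaction. The replicate block within genotype changed no call of a member for LPS in Hdac3 +/- cells, and that across groups gave 2 calls after LPS, Bhlhe40 and Bhlhe41. Over all genes, array weights raised the calls to 4424, against 1769, for LPS in Hdac3 -/- cells, to 1186, against 531, between untreated genotypes and to 592, against 216, for the interaction. Only the groups compared gave 2365 for LPS in Hdac3 -/- cells and 321 between untreated genotypes. Without the LPS-treated Hdac3 -/- array of replicate 1 the calls over all genes were 1129 for LPS in Hdac3 -/- cells, 2023 between the genotypes after LPS and 121 for the interaction. Without that of replicate 3 they were 1685 after LPS and 113 for the interaction. Without the untreated Hdac3 -/- array of replicate 1 they were 1143 for LPS in Hdac3 -/- cells, 266 untreated and 97 for the interaction. Without the LPS-treated Hdac3 +/- array of replicate 3 they were 1828 after LPS and 126 for the interaction, which became 349 without that of replicate 1. The causes were not tested. The SE of a member's difference, 0.166 for Per2 to 0.432 for Bhlhe40, limits what 3 arrays per group could call.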
